A study of Polypedilum vanderplanki with 24 samples.

Results

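This report follows the trehalose response of Pv11 cells that lack the transcription factor HSF1, comparing Hsf1-/- cells after 48 h in trehalose (T48) with the same line before it (T0). The comparison rests on 6 of the 24 libraries of the series, 3 at each time, and on 2 of the 8 deposited columns, each of which is the authors' mean TPM of 3 libraries. The deposited table names 17782 genes. Of these, 8337 had 1 TPM or more in at least one of the 2 means of Hsf1-/- cells and are called expressed here, 9445 did not, and 6006 were at 0 at both times. Because the values analysed are group means, no spread between libraries, no test and no p-value can be given, and every statement below describes means.

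Pv11 is a cultured embryonic line of the sleeping chironomid Polypedilum vanderplanki, a midge whose larvae survive near-complete drying. Both groups carry the same genotype, Hsf1-/-, a single sorted and zeocin-selected clone in which a cassette with AcGFP1 and the zeocin resistance gene ZeoR was inserted into the Hsf1 gene by CRISPR/Cas9. Cells at T48 had been for 48 h in a concentrated trehalose mixture that held only a small part of culture medium. Cells at T0 were in normal medium at 0 h. The effects of trehalose, of the diluted medium and of the 48 h of culture therefore cannot be told apart. The other lines are set beside them as reference points. These are the HaloTag/BlaR line (Hsf1-/- cells with HaloTag and the blasticidin resistance gene BlaR at g7775), the HSF1-rescue line (Hsf1-/- cells with Hsf1-HaloTag and BlaR at g7775) and WT Pv11 cells with intact Hsf1, each also sampled at T48 and T0. The HaloTag/BlaR and HSF1-rescue lines descend from the Hsf1-/- clone, so clone and genotype cannot be told apart in any difference from WT cells.

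HSF1 is a conserved transcription factor best known for switching on chaperone genes when proteins misfold. It binds as a trimer to heat shock elements (HSEs), short inverted repeats of the triplet GAA. Pv11 cells dried after incubation in concentrated trehalose, a sugar that replaces water around membranes and proteins and forms a glass on drying, can resume growth when rehydrated. During this incubation the midge's anhydrobiosis genes are known to be induced, among them late embryogenesis abundant (Lea) proteins, which are disordered protectants of other proteins and membranes.

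The Hsf1 row, g3611, had 0.248 TPM at T48 and 0.0271 TPM at T0 in Hsf1-/- cells, against 0.307 TPM at T48 and 0.0863 TPM at T0 in WT cells. The row is under 1 TPM in all 8 groups, WT included, so it neither bears out nor contradicts the genotype labels. The most abundant transcript of the Hsf1-/- cells, g7775, the locus the study used for its insertions, had 42716 TPM at T48 and 48156 TPM at T0. Marker lists for other cell types were mostly under 1 TPM in Hsf1-/- cells. None of 3 hemocyte markers was expressed, while 5 of 9 muscle, 5 of 14 neuron and 4 of 9 fat body markers were, with summed levels of 182, 309 and 120 TPM at T48 and 133, 183 and 90.6 TPM at T0. Of these, 2 muscle, 2 neuron and 2 fat body markers were at least 2-fold higher at T48 and 1, 0 and 1 lower, and their part in the results was not tested. A muscle-type myosin heavy chain gene, g12034, had 18.2 TPM at T48 and 3.05 TPM at T0 in Hsf1-/- cells and 0.772 TPM at T48 and 0.14 TPM at T0 in WT cells.

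The study predicted HSEs by scanning 1000 bp around each start site with FIMO. Of the expressed genes, 2384 of 8337 (28.6%) had at least 1 match. The stretches below stand for the gene groups that the results turn on: small heat shock protein genes, the Lea-island genes, an aminoacyl-tRNA synthetase, a Lea and a thioredoxin gene with low levels in the lines without HSF1, and the main Hsc70 gene. Each is read 5′ to 3′ on the strand given with its window, and capitals mark the GAA and TTC triplets that make up an HSE.
g5646 (small heat shock protein 23): TTCtcGAAtgTTC
g5648 (Hsp20-type chaperone): atcgaGAAtaTTC
g16184 (PvLEA1): ctccgGAAgaTTC
g16187 (PvLEA3): TTCtaGAAggtta
g16200 (Lil): ctctaGAAtgtcc
g4841 (seryl-tRNA synthetase): TTCcaGAAgcTTC
g17261 (Lea): TTCtcgttttTTC
g17486 (Trx): TTCtaaaacaTTC
g11137 (Hsc70): TTCtaGAAttttt
The windows searched, in assembly Pv_5.2 and as deposited, were chr_2:10878070-10879070 (minus strand) for g5646, chr_2:10882699-10883699 (plus strand) for g5648, chr_4:8447722-8448722 (plus strand) for g16184, chr_4:8460109-8461109 (minus strand) for g16187, chr_4:8506285-8507285 (minus strand) for g16200, chr_2:5203380-5204380 (plus strand) for g4841, chr_4:12965283-12966283 (plus strand) for g17261, chr_4:13664759-13665759 (minus strand) for g17486 and chr_3:14305107-14306107 (minus strand) for g11137. The stretches of g5646 and g4841 hold 3 alternating triplets and scored 19.7 and 17 with FIMO. Those of g17261 and g17486 hold only the outer TTC triplets and scored 10.2 and 9.98. Each printed stretch is the gene's best-scoring match of 13 bases, and matches of other lengths are not shown. The stretch of g11137 recurs in the windows of 15 genes, one of which is Hsf1 itself. A match is a description of the bases and not a measured binding site.

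A predicted HSE was about as common among genes that differed between the times as among those that did not. At least 1 match was present for 28.8% of the genes at least 2-fold higher at T48, for 28.3% of those at least 2-fold lower, and for 28.6% of those past neither bound. With the 4 motifs named in the study's methods alone the shares were 20.3%, 22.5% and 20.4%, and with the trimeric motif MA0771.1 alone they were 10.3%, 10.4% and 8.88%. The median log2 ratio was 0.31 for expressed genes with a match and 0.30 for those without. Among the expressed members of the families described below, a match was present for 9 of 13 Lil, 14 of 22 Lea, 7 of 14 Pimt, 6 of 16 Trx and 20 of 38 Hsp genes.

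Trehalose was followed by a broad response in the absence of HSF1. Here the log2 ratio is log2(TPM + 1) at T48 minus that at T0, and a gene counts as higher or lower when this ratio is at least 1 in size, a 2-fold difference on that scale, which understates the change of genes near 1 TPM. In Hsf1-/- cells 1896 of the 8337 expressed genes (22.7%) were higher at T48 and 689 (8.26%) were lower. The median ratio of all expressed genes was 0.30, and the middle of the distribution ran between -0.31 and 0.93 (quartiles). Dividing the group means by median-of-ratios factors moved this median by 0.29 to 0.01 and left 1269 genes higher (15.2%) and 1147 lower (13.8%), so the share of higher genes among those past 2-fold was 73.3% as deposited and 52.5% after scaling. List medians below are therefore to be read against 0.30, and values called scaled are after that division.

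TPM keeps no depth, and the read totals of the libraries were not used here. Among the expressed genes 749 passed the minimum through T48 alone and 183 through T0 alone. For these the sign of the ratio was fixed in advance, though not a 2-fold difference. Of the 7405 genes with at least 1 TPM at both times, 1400 were higher and 582 lower at T48. At least 4-fold differences were found for 438 genes that were higher and 141 that were lower, and at least 8-fold ones for 105 and 40. There were 33 genes under 1 TPM at T0 and at 10 TPM or more at T48, and 14 the other way round.

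**Figure D1:**
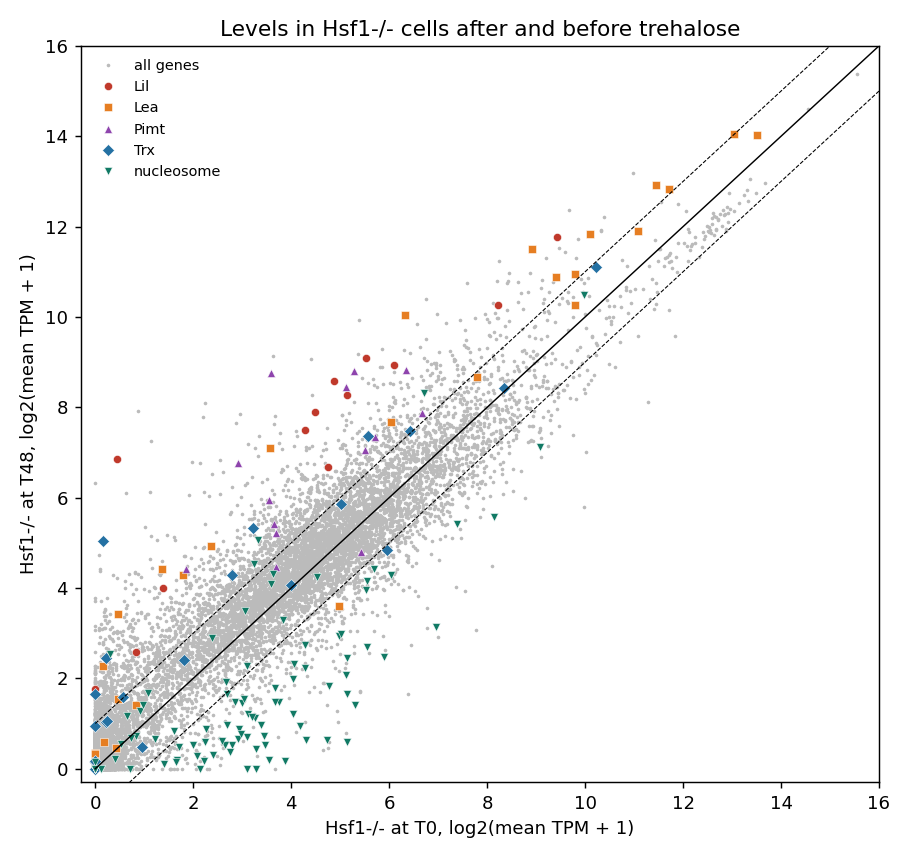
Mean level of each gene in Hsf1-/- cells at T48 (vertical axis) against T0 (horizontal axis), both as log2(TPM + 1), with the Lil, Lea, Pimt, Trx and nucleosome lists marked; the solid line is equality and the dashed lines are 2-fold. Lil, Pimt and many Lea genes lie above the upper dashed line, and 64 of the 83 expressed nucleosome genes lie below the lower one.

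The families that earlier work tied to anhydrobiosis did not respond alike. The lists are those the study used, and several members are near-identical tandem copies, for which counting only uniquely placed reads makes single levels uncertain. The Lea-island-located (Lil) genes, small putative membrane protein genes found among the Lea genes of chromosome 4, had every member past 2-fold: 13 of 13 were higher at T48 and none lower, with a median ratio of 2.82, though 3 of them passed the 1 TPM minimum only through T48. Scaling left the same count and a median of 2.50. Their summed level was 5.77-fold that at T0. The most abundant, g16190, had 3484 TPM at T48 and 688 TPM at T0 in Hsf1-/- cells, and g16169 had 1229.8 TPM at T48 and 299 TPM at T0. The largest ratio, 6.42, belonged to g16200, with 115 TPM at T48 and 0.354 TPM at T0. The smallest was 1.76 for g16168, with 5.03 TPM at T48 and 0.78 TPM at T0. The median of the same list was 3.05 in HaloTag/BlaR, 2.70 in HSF1-rescue and 2.90 in WT cells, so the lines lay close together in this ratio. In level they did not. The Lil sums were 7100 TPM at T48 and 1231 TPM at T0 in Hsf1-/- cells and 6838 and 1278 TPM in HaloTag/BlaR cells. They were higher at both times in HSF1-rescue cells (12706.5 and 2923 TPM) and WT cells (10503 and 2916 TPM).

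Of 27 Lea genes 22 were expressed, 4 of them only through T48, 16 were higher and 1 lower at T48, with a median of 1.48 (1.15 scaled, 12 higher). Together the Lea genes made up 6.63% of all TPM at T48 and 3.29% at T0. The median was 1.65 in HaloTag/BlaR, 2.61 in HSF1-rescue and 2.12 in WT cells (1.27, 2.53 and 1.53 scaled), with 21, 27 and 26 genes expressed. Over the 26 members expressed in Hsf1-/- or WT cells, the deposited Hsf1-/- ratio was lower than the WT ratio by at least 1 for 14. It was higher by at least 1 for 1. PvLEA1 (g16184) had 1053 TPM at T48 and 79 TPM at T0, and PvLEA3 (g16187) had 2896 TPM at T48 and 480.2 TPM at T0. The most abundant members differed less: PvLEA7 (g16203) had 17015 TPM at T48 and 8425 TPM at T0, g16204 had 16686 TPM at T48 and 11641 TPM at T0 and PvLEA5 (g16205) had 7744 TPM at T48 and 2778 TPM at T0, ratios of 1.01, 0.52 and 1.48. The exception in direction was g16171, which had 11.1 TPM at T48 and 30.6 TPM at T0 in Hsf1-/- cells and 43.3 TPM at T48 and 10.5 TPM at T0 in WT cells.

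A further group of Lea genes on chromosome 4 had low levels in the lines without HSF1. The gene g17261 had 20.3 TPM at T48 and 1.57 TPM at T0 in Hsf1-/- cells, 4193 TPM at T48 and 34 TPM at T0 in HSF1-rescue cells and 495 TPM at T48 and 3.65 TPM at T0 in WT cells. Its neighbour g17259 had 9.8 TPM at T48 and 0.374 TPM at T0 in Hsf1-/- cells, 887 TPM at T48 and 6.87 TPM at T0 in HSF1-rescue cells and 126 TPM at T48 and 0.912 TPM at T0 in WT cells. The gene g17255 had 1.9 TPM at T48 and 0.374 TPM at T0 in Hsf1-/- cells, 634 TPM at T48 and 20.2 TPM at T0 in HSF1-rescue cells and 54.5 TPM at T48 and 2.22 TPM at T0 in WT cells, so the ranking of the lines was the same for the 3 genes. The ratios of g17261 and g17259 in Hsf1-/- cells were nevertheless 3.05 and 2.97, so both counted as higher at T48 from a very low start. In the HaloTag/BlaR line, which also lacks HSF1, g17261 had 9.16 TPM at T48 and 1.22 TPM at T0.

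The Pimt genes encode protein L-isoaspartyl methyltransferases, which repair aged aspartate and asparagine residues. Of 14 genes, all expressed, 12 were higher at T48 and none lower, with a median of 2.09 (1.78 scaled) and a summed level 5.52-fold that at T0. The largest ratio was 5.17 for g16360, with 431 TPM at T48 and 11 TPM at T0, and the most abundant at T48 was g16348 with 451 TPM at T48 and 80.6 TPM at T0. The 2 that did not pass were g16347, at 21 TPM at T48 and 11.9 TPM at T0, and g6692, the one copy off chromosome 4, at 26.9 TPM at T48 and 42 TPM at T0. The median was 2.57 in HaloTag/BlaR, 2.62 in HSF1-rescue and 3.43 in WT cells, all above that of Hsf1-/- cells. The gap was wide for g16359, with 20.5 TPM at T48 and 2.6 TPM at T0 in Hsf1-/- cells and 233 TPM at T48 and 3.31 TPM at T0 in WT cells.

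The thioredoxin (Trx) list, whose proteins reduce disulfide bonds, had the widest gap from WT cells in its median among these families. Of 25 members 16 were expressed in Hsf1-/- cells, 6 of them only through T48, 8 were higher and 1 lower, and the median was 0.96 (0.70 scaled). Over the 19 members expressed in Hsf1-/- or WT cells, the Hsf1-/- ratio was lower than the WT ratio by at least 1 for 15. The same list had a median of 0.91 in HaloTag/BlaR, 3.25 in HSF1-rescue and 3.50 in WT cells. In the tandem cluster on chromosome 4, g17499 had 342 TPM at T48 and 323 TPM at T0 in Hsf1-/- cells and 2386 TPM at T48 and 210.1 TPM at T0 in WT cells. Its neighbour g17498 had 31.8 TPM at T48 and 0.107 TPM at T0 in Hsf1-/- cells and 209.9 TPM at T48 and 2.19 TPM at T0 in WT cells, and g17486 had 2.13 TPM at T48 and 0 TPM at T0 in Hsf1-/- cells and 40.3 TPM at T48 and 0.187 TPM at T0 in WT cells. The most abundant member, g11995, lies outside that cluster and had 2214 TPM at T48 and 1201 TPM at T0 in Hsf1-/- cells, against 1652 TPM at T48 and 1430.2 TPM at T0 in WT cells. The one that was lower was g7730, at 27.8 TPM at T48 and 61.3 TPM at T0.

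**Figure D2:**
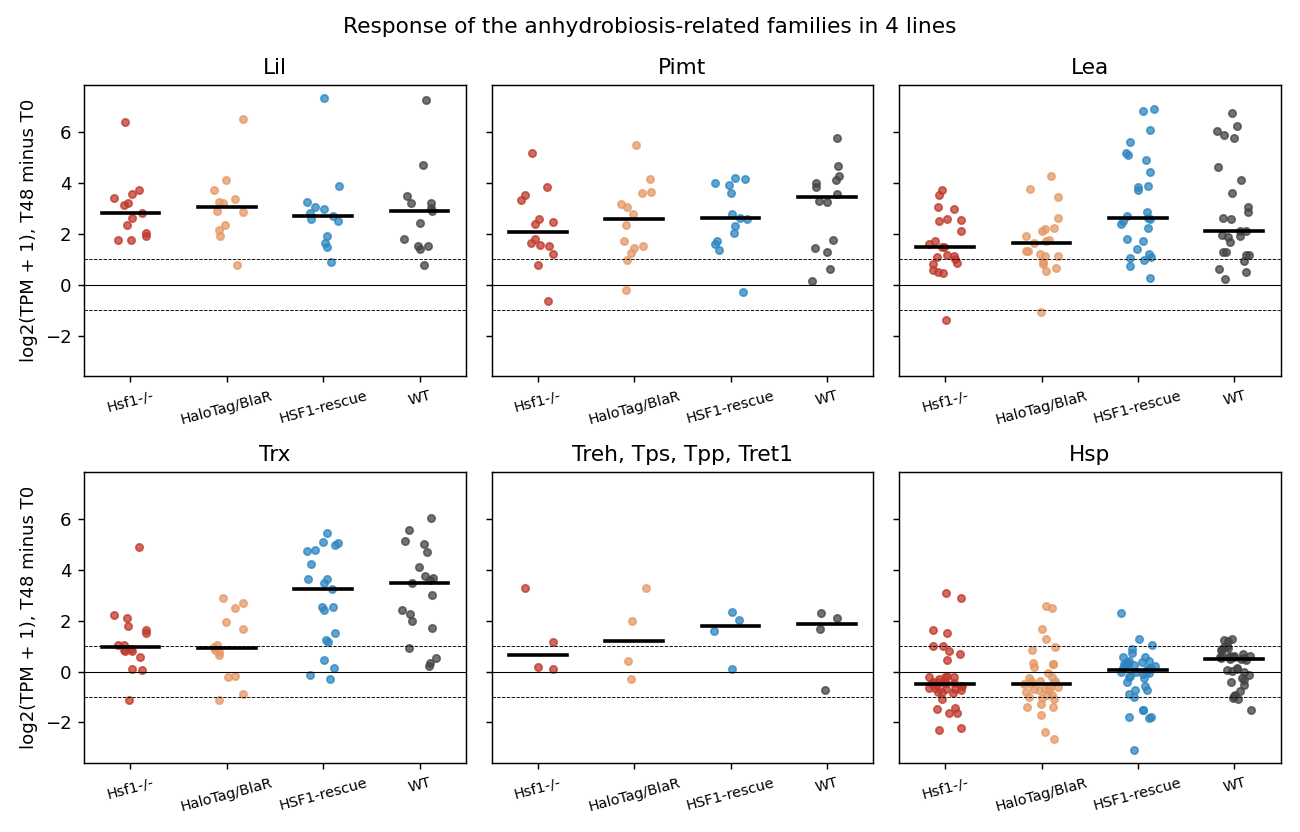
Log2 ratio (T48 minus T0, on log2(TPM + 1)) of each member with at least 1 TPM in that line, for 6 families, in Hsf1-/-, HaloTag/BlaR, HSF1-rescue and WT cells; bars are medians and dashed lines 2-fold. The Lil medians lie between 2.70 and 3.05 in all lines, whereas the Trx medians are 0.96 and 0.91 in the lines without HSF1 and 3.25 and 3.50 in the lines with it.

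Of the genes of trehalose metabolism, trehalase (Treh, g17178), which splits trehalose into glucose, had 925 TPM at T48 and 93.5 TPM at T0 in Hsf1-/- cells and 937 TPM at T48 and 296 TPM at T0 in WT cells. Trehalose-6-phosphate synthase (Tps, g13302) had 58.1 TPM at T48 and 25.5 TPM at T0 in Hsf1-/- cells, a ratio of 1.16 that fell short of 2-fold after scaling (0.84), and 171 TPM at T48 and 38.8 TPM at T0 in WT cells. The phosphatase Tpp (g13300), which completes trehalose synthesis, had 32.2 TPM at T48 and 28.3 TPM at T0 in Hsf1-/- cells and 56.7 TPM at T48 and 10.7 TPM at T0 in WT cells. The transporter Tret1 (g6534) had 184 TPM at T48 and 169.8 TPM at T0 in Hsf1-/- cells and 207 TPM at T48 and 343 TPM at T0 in WT cells. In Hsf1-/- cells neither Tpp nor Tret1 passed 2-fold.

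The heat shock protein (Hsp) list, the classical targets of HSF1, had a negative median at T48 relative to T0. Of 38 expressed genes 5 were higher and 7 lower (4 and 13 after scaling), and the median was -0.47 in Hsf1-/- cells, against 0.48 in WT cells (-0.80 and -0.07 scaled). Within it the small Hsp20-type chaperones went both ways. Small heat shock protein 23 (g5646) had 48.7 TPM at T48 and 5.7 TPM at T0 in Hsf1-/- cells and 111 TPM at T48 and 72.8 TPM at T0 in WT cells. Its close neighbour g5648 had 1067 TPM at T48 and 125 TPM at T0 in Hsf1-/- cells and 634 TPM at T48 and 634 TPM at T0 in WT cells. Thus g5648 ended at a higher level in Hsf1-/- than in WT cells after starting from a lower one. In contrast g10586 had 67.1 TPM at T48 and 318 TPM at T0 and g10587 had 11.4 TPM at T48 and 58.9 TPM at T0 in Hsf1-/- cells. Hsp60 (g2580) had 249 TPM at T48 and 686 TPM at T0, its partner Hsp10 (g6689) had 151 TPM at T48 and 471 TPM at T0 and the mitochondrial Hsp70 cognate 5 (g10883) had 404 TPM at T48 and 857 TPM at T0, so these 3 chaperones of the mitochondrial matrix were all lower. The most abundant chaperone, Hsc70 (g11137), had 6868 TPM at T48 and 7882 TPM at T0 and the DnaJ gene g11123 had 141 TPM at T48 and 49.1 TPM at T0. The 4 Hsp90-type genes were past neither bound (median -0.68).

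The genes annotated to protein folding overlap the Hsp list, so the lists are not separate evidence. Of 42 expressed genes annotated to protein folding 20 are Hsp list members, and of the 22 others none was higher and 5 were lower. Of all 42, 1 was higher and 8 lower, with a median of -0.42 (-0.74 scaled), against 0.48 in WT cells (-0.07 scaled). Calreticulin (g16754), a calcium-binding chaperone of the endoplasmic reticulum, had 99 TPM at T48 and 366 TPM at T0 in Hsf1-/- cells and 88.3 TPM at T48 and 116 TPM at T0 in WT cells. The chaperonin subunit TCP-1 eta (g3853) had 251 TPM at T48 and 447 TPM at T0 in Hsf1-/- cells and 311 TPM at T48 and 208 TPM at T0 in WT cells. A split of the list made after its values were seen put the 9 TCP-1 subunits at a median of -0.44 in Hsf1-/- and 0.68 in WT cells. After scaling these medians were -0.76 in Hsf1-/- and 0.10 in WT cells.

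The largest ratios among genes with at least 10 TPM at one of the times were not those of the known families alone. The tetraspanin g8185, a membrane-spanning organizer, had 240.3 TPM at T48 and 0.829 TPM at T0, a ratio of 7.04. The alpha-tocopherol transfer protein-like gene g4830 had 79.7 TPM at T48 and 0 TPM at T0, and the synapsin-like gene g2755 had 151 TPM at T48 and 1.18 TPM at T0. A gene with an actin-depolymerising factor domain, g12762, had 564 TPM at T48 and 11.4 TPM at T0 in Hsf1-/- cells and 146 TPM at T48 and 1.5 TPM at T0 in WT cells. The gene g12927, placed by its domain among TNFAIP8-like regulators of cell death, had 219 TPM at T48 and 3.57 TPM at T0, and the leucine-rich repeat gene g16708 had 68.3 TPM at T48 and 1.17 TPM at T0. The unannotated gene g14027 had 272 TPM at T48 and 3.74 TPM at T0, and g6222 had 67.5 TPM at T48 and 0.553 TPM at T0. Together with g16200 and g16360, these make up the 10 largest.

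The 10 smallest ratios among genes with at least 10 TPM included a globin gene and a gene named for a respiratory chain subunit. A globin, g6089, had 7.36 TPM at T48 and 218 TPM at T0 in Hsf1-/- cells and 3.41 TPM at T48 and 287 TPM at T0 in WT cells. Of 3 globin genes expressed in Hsf1-/- cells it was the 1 that was lower. The other 2 were higher, and both passed the minimum through T48 alone. An MLRQ-type subunit gene, g11541, named for a subunit of the respiratory chain, had 54.8 TPM at T48 and 1006 TPM at T0 in Hsf1-/- cells and 10.5 TPM at T48 and 614 TPM at T0 in WT cells. The haem peroxidase g14107 had 0.723 TPM at T48 and 33.7 TPM at T0. Leucine-rich repeat genes stood on this side too, g682 with 6.6 TPM at T48 and 126 TPM at T0, g9541 with 0.338 TPM at T48 and 24.2 TPM at T0 and g14670 with 0.37 TPM at T48 and 26.1 TPM at T0. The histone H3 gene g8296 had 0.514 TPM at T48 and 34.4 TPM at T0, and the histone H3 gene g8459 had 0.547 TPM at T48 and 25.7 TPM at T0. Of unknown function, g5969 had 2.15 TPM at T48 and 82.4 TPM at T0 and g3656 had 0.502 TPM at T48 and 26.2 TPM at T0.

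Energy metabolism differed by pathway. Glycolysis, the breakdown of glucose to pyruvate, had 7 of 10 genes higher and none lower, a median of 1.29 (0.98 scaled, 5 higher), and a summed level 2.44-fold that at T0. Phosphofructokinase (g10749), the committing step of the pathway, had 668 TPM at T48 and 185 TPM at T0 in Hsf1-/- cells, 176 TPM at T48 and 380.1 TPM at T0 in HSF1-rescue cells and 342 TPM at T48 and 647 TPM at T0 in WT cells. Enolase (g6296) had 3862 TPM at T48 and 1280.5 TPM at T0 in Hsf1-/- cells, 1463 TPM at T48 and 2940.3 TPM at T0 in HSF1-rescue cells and 3063 TPM at T48 and 4174 TPM at T0 in WT cells. Aldolase (g11637) had 161 TPM at T48 and 45.7 TPM at T0, glucose-6-phosphate isomerase (g2663) had 770.7 TPM at T48 and 304 TPM at T0 and hexokinase (g1897) had 8.34 TPM at T48 and 1.13 TPM at T0 in Hsf1-/- cells. Pyruvate kinase (g160), with 1829 TPM at T48 and 971 TPM at T0, and triosephosphate isomerase (g6936), with 1253 TPM at T48 and 709 TPM at T0, did not pass. The list's median was 1.21 in HaloTag/BlaR, -1.06 in HSF1-rescue and -0.47 in WT cells, so the sign differed between the lines without and with HSF1. The difference was not tested.

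ATP synthesis stood on the other side. The mitochondrial ATP synthase list had 7 of 11 genes lower and none higher at T48, with a median of -1.33 (-1.65 scaled, 9 lower). The c-type subunit gene g9266 had 769 TPM at T48 and 2173 TPM at T0, the alpha subunit (g1669) had 416 TPM at T48 and 1162 TPM at T0 and the beta subunit (g7327) had 699.8 TPM at T48 and 1688 TPM at T0. The coupling factor gene g2903 had 339.7 TPM at T48 and 1003 TPM at T0. The list's median was -1.52 in HaloTag/BlaR, -0.75 in HSF1-rescue and -0.56 in WT cells, negative in all lines. The ADP,ATP carrier g6957, which exports the product, had 1240.0 TPM at T48 and 2796 TPM at T0 in Hsf1-/- cells and 1365 TPM at T48 and 1553 TPM at T0 in WT cells. The tricarboxylic acid cycle list showed no common direction and had a median of -0.05. It had 3 of 17 genes higher and 2 lower, beside 22.7% and 8.26% of all expressed genes. In it the 2-oxoglutarate dehydrogenase genes split: g7800 had 375 TPM at T48 and 73.8 TPM at T0 and g7803 had 522 TPM at T48 and 109 TPM at T0, whereas g12033 had 33.3 TPM at T48 and 105 TPM at T0.

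**Figure D3:**
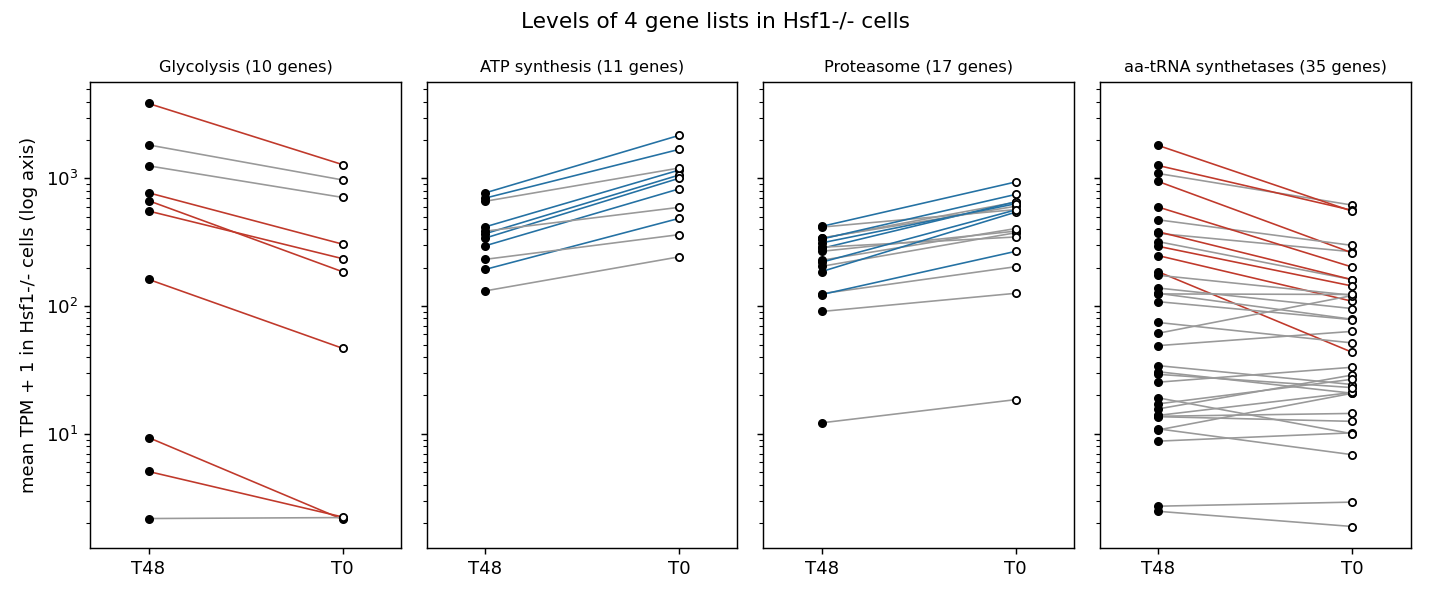
Mean TPM + 1 in Hsf1-/- cells (log axis) at T48 and T0 for each expressed gene of 4 lists; red lines mark genes at least 2-fold higher at T48, blue lines genes at least 2-fold lower, grey lines neither. The lines of the 10 glycolysis genes run mostly downward to T0, those of the 11 ATP synthesis and 17 proteasome genes run upward to T0, and the 35 aminoacyl-tRNA synthetase genes are mixed, with 8 of them higher at T48.

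Cytochrome P450 genes, which oxidize lipids and foreign compounds, were mostly unexpressed, but many of those expressed were higher: 26 of 49 expressed members (156 in the table) were higher and 2 lower, with a median of 1.13 (0.88 scaled). Of the expressed members 9 passed the minimum through T48 alone. The most abundant, g13107, had 232 TPM at T48 and 35.1 TPM at T0 in Hsf1-/- cells and 159.9 TPM at T48 and 73 TPM at T0 in WT cells, and g1984 had 66.1 TPM at T48 and 2.74 TPM at T0 in Hsf1-/- cells and 43.5 TPM at T48 and 15.4 TPM at T0 in WT cells. The list's median was 1.37 in HaloTag/BlaR, 0.02 in HSF1-rescue and 0.45 in WT cells. Oxidoreductases as a whole were balanced as deposited, with 19 of 136 genes higher and 19 lower, beside 22.7% and 8.26% of all expressed genes. After scaling 15 were higher and 36 lower, and their median of 0.02 turned to -0.28.

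Ribosomal protein genes held 24.3% of all TPM at T48 and 36.2% at T0. Of 122 genes 9 were lower and 1 higher, with a median of -0.54 (-0.86 scaled, 36 lower). As deposited, the share that was lower is near the 8.26% of all expressed genes, of which 13.8% were lower after scaling. The list's most abundant members had smaller values at T48: the S9-type gene g556 had 8023 TPM at T48 and 13080.4 TPM at T0, g6993 had 7162 TPM at T48 and 10161 TPM at T0 and the L10e-type gene g2519 had 8530.0 TPM at T48 and 10603 TPM at T0. The exception was the S14-type gene g4089, with 465 TPM at T48 and 123 TPM at T0. The medians in HaloTag/BlaR, HSF1-rescue and WT cells were -0.49, -0.66 and -0.45, so as deposited the lines lay close together in this list. After scaling the medians in these lines were -0.87, -0.74 and -1.03, with 42, 21 and 65 of 122 genes lower. Elongation factor 1-alpha (g10339), the second most abundant transcript, had 25039 TPM at T48 and 23847 TPM at T0. Among 15 ribosome biogenesis genes none was higher and 2 were lower, beside 22.7% higher and 8.26% lower of all expressed genes. The lower ones were the Nhp2-type gene g4945 and the Mrt4-type gene g84. In Hsf1-/- cells g4945 had 474 TPM at T48 and 1567 TPM at T0, and in WT cells 688 TPM at T48 and 547 TPM at T0. For g84 the levels were 43 TPM at T48 and 92.1 TPM at T0 in Hsf1-/- cells and 74 TPM at T48 and 28.1 TPM at T0 in WT cells.

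Aminoacyl-tRNA synthetases, which charge tRNAs with their amino acids, had 8 of 35 genes higher and none lower (4 higher and 3 lower after scaling), with a median of 0.52. The share that was higher is near the 22.7% of all expressed genes. Seryl-tRNA synthetase (g4841), whose predicted HSE is printed above, had 1813 TPM at T48 and 552 TPM at T0 in Hsf1-/- cells and 1679.8 TPM at T48 and 913 TPM at T0 in WT cells. Methionyl-tRNA synthetase (g14086) had 946 TPM at T48 and 260.1 TPM at T0 in Hsf1-/- cells. The glycyl (g5191) and tryptophanyl (g13952) enzymes had 596 TPM at T48 and 201 TPM at T0, and 185 TPM at T48 and 42.5 TPM at T0, in the order named. When the list was split by its descriptions after its values had been seen, 5 of 13 members named cytoplasmic were higher and their summed level was 5203 TPM at T48 and 2243 TPM at T0, whereas none of 13 named mitochondrial passed and their sum was 321 TPM at T48 and 332 TPM at T0. The sum of the cytoplasmic members was 2124 TPM at T48 and 2094 TPM at T0 in HSF1-rescue cells.

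The proteasome is the protease complex that degrades ubiquitin-tagged proteins. Of 17 expressed subunit genes 7 were lower and none higher, with a median of -0.88 (-1.20 scaled, 12 lower) and a summed level 0.52-fold that at T0. The beta type-6 subunit (g7161) had 185 TPM at T48 and 543 TPM at T0 in Hsf1-/- cells and 112 TPM at T48 and 127 TPM at T0 in WT cells. The alpha type-6 subunit (g8196) had 219.6 TPM at T48 and 566 TPM at T0 in Hsf1-/- cells and 167 TPM at T48 and 148 TPM at T0 in WT cells, and the alpha type-2 subunit (g5793) had 419.8 TPM at T48 and 937 TPM at T0 in Hsf1-/- cells and 279.7 TPM at T48 and 231 TPM at T0 in WT cells. The list's median was -0.91 in HaloTag/BlaR, 0.06 in HSF1-rescue and 0.18 in WT cells (-0.02 and -0.40 scaled, so the sign in these lines turned). Between Hsf1-/- and WT cells the gap lay mainly at T0, where g7161 had 543 TPM in Hsf1-/- cells and 127 TPM in WT cells. The summed level of the list was 4179 TPM at T48 and 8030 TPM at T0 in Hsf1-/- cells and 2979 and 2693 TPM in WT cells. In HSF1-rescue cells it was 5767 TPM at T48 and 5486 TPM at T0, above the Hsf1-/- sum at T48 and below it at T0.

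**Figure D4:**
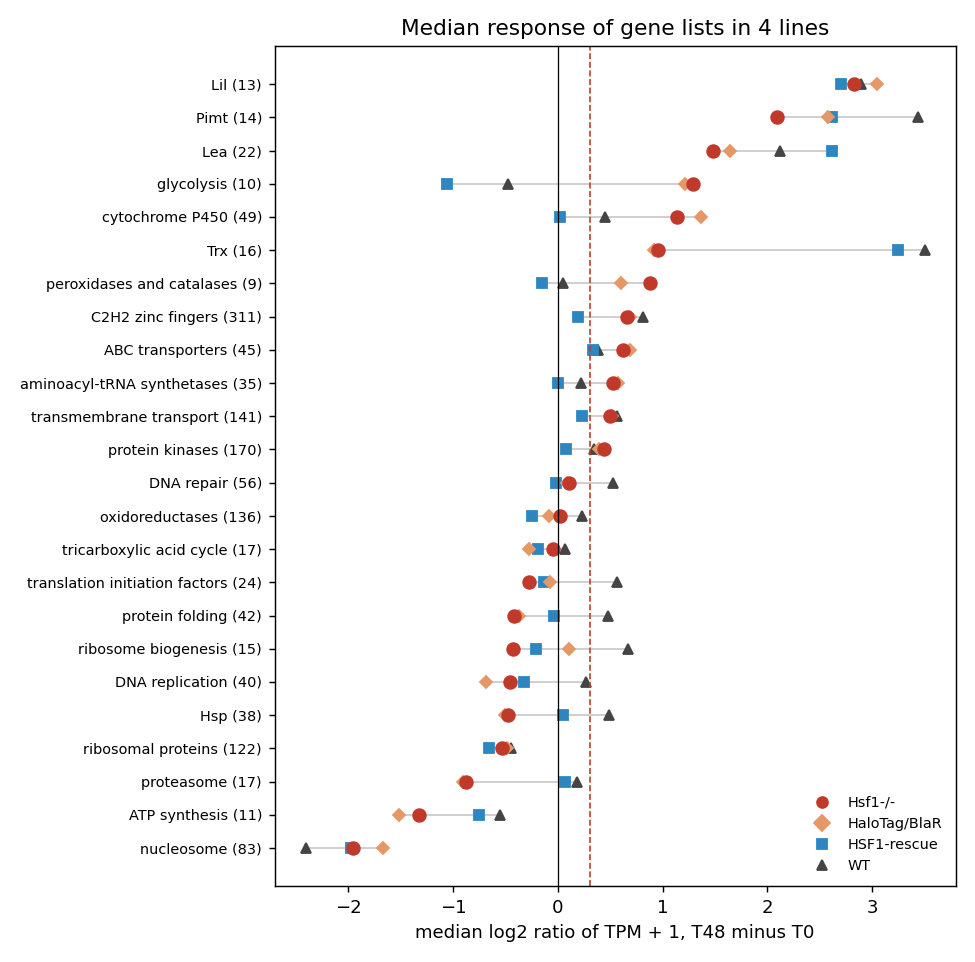
Median log2 ratio (T48 minus T0, on log2(TPM + 1)) of 24 gene lists over the members expressed in each line, with the number expressed in Hsf1-/- cells in parentheses; the dashed line is the median of all expressed genes in Hsf1-/- cells (0.30). Hsf1-/- and HaloTag/BlaR cells lie close together in most lists, and for glycolysis they lie on the other side of 0 from WT cells. As deposited only, the same holds for the proteasome (-0.40 in WT cells after scaling). It also holds, as deposited only, for the Hsp, protein folding, DNA replication, translation initiation factor and tricarboxylic acid cycle lists.

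Histone genes gave more genes past the lower bound than any other list examined. Of 83 expressed members of the nucleosome list (103 in the table) 64 were lower and 4 higher, with a median of -1.96 (-2.12 scaled), and 34 of them passed the minimum through T0 alone. The medians were -1.67 in HaloTag/BlaR, -1.97 in HSF1-rescue and -2.41 in WT cells. The H4-type gene g6809 had 46.8 TPM at T48 and 281 TPM at T0 and the H2B-type gene g8245 had 7.82 TPM at T48 and 123 TPM at T0. The most abundant histone gene, the H3-type g13236, had 1439 TPM at T48 and 1006 TPM at T0 and did not pass, and the H3-type g4523 had 318 TPM at T48 and 104 TPM at T0, so these abundant members ran against the rest. The libraries were made from poly(A) RNA, while replication-dependent histone messages mostly lack a poly(A) tail, so levels of single histone genes are uncertain here.

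Genes of DNA replication lay below the general median. Of 40 expressed genes 10 were lower and none higher, with a median of -0.46 (-0.73 scaled, 16 lower) in Hsf1-/- cells and 0.26 in WT cells (-0.25 scaled). The helicase subunit Mcm2 (g12531) had 33.3 TPM at T48 and 175 TPM at T0 in Hsf1-/- cells and 45.4 TPM at T48 and 64 TPM at T0 in WT cells. Its partner MCM3 (g1168) had 16 TPM at T48 and 64.6 TPM at T0 in Hsf1-/- cells and 17.9 TPM at T48 and 15.4 TPM at T0 in WT cells. Subunit B of DNA polymerase alpha (g947) had 9.04 TPM at T48 and 32.9 TPM at T0 in Hsf1-/- cells and 9.21 TPM at T48 and 13.8 TPM at T0 in WT cells, so for these 3 genes the lines differed mainly at T0. Of 15 cyclin genes 3 were higher and 1 lower, near the shares of all expressed genes (22.7% higher and 8.26% lower). The lower one, cyclin-B3 (g7973), had 3.7 TPM at T48 and 16.2 TPM at T0. The mitotic cyclins B (g3839), with 21.2 TPM at T48 and 39 TPM at T0, and A (g7137), with 27.7 TPM at T48 and 44.6 TPM at T0, did not pass. Of 56 DNA repair genes 9 were higher and 5 lower, beside 22.7% and 8.26% of all expressed genes. Their median of 0.11 turned to -0.21 after scaling. DNA ligase 4 (g7414), which joins broken ends, had 6.11 TPM at T48 and 0.29 TPM at T0.

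Antioxidant genes outside the thioredoxins lay on both sides. Catalase (g7294), which breaks down hydrogen peroxide, had 2019 TPM at T48 and 471 TPM at T0 in Hsf1-/- cells and 2808 TPM at T48 and 280.0 TPM at T0 in WT cells. Glutathione peroxidase (g13509) had 229.7 TPM at T48 and 98.4 TPM at T0 in Hsf1-/- cells, 1896 TPM at T48 and 149.8 TPM at T0 in HSF1-rescue cells and 679 TPM at T48 and 85.3 TPM at T0 in WT cells. Peroxiredoxin 1 (g8572) had 190.5 TPM at T48 and 704 TPM at T0 and manganese superoxide dismutase (g7639) had 134 TPM at T48 and 219 TPM at T0 in Hsf1-/- cells. The peroxiredoxin-6 gene g4792 had 77.7 TPM at T48 and 37.1 TPM at T0 in Hsf1-/- cells and 166 TPM at T48 and 374 TPM at T0 in WT cells, past 2-fold in opposite directions as deposited. After scaling its log2 ratio in Hsf1-/- cells was 0.73, under 2-fold. Of 9 peroxidase and catalase genes 3 were higher and 2 lower, and of 36 glutathione S-transferases 10 were higher and 3 lower. Of all expressed genes 22.7% were higher and 8.26% lower, and the glutathione S-transferase shares are near these.

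Of all expressed genes 22.7% were higher and 8.26% lower as deposited, and 15.2% and 13.8% after scaling, and the counts of regulators of transcription are read against these. C2H2 zinc finger genes had 97 of 311 expressed genes higher and 7 lower, with a median of 0.65. After scaling the counts were 51 and 11 and the median 0.37. Of 81 sequence-specific transcription factors 16 were higher and 5 lower, shares near those of all genes, and after scaling 12 were higher and 9 lower. Their median of 0.20 turned to -0.11 after scaling. The bZIP factor vrille (g3762), a clock component in Drosophila, had 227 TPM at T48 and 32 TPM at T0, the bZIP gene g5127 had 403 TPM at T48 and 88 TPM at T0 and the bZIP gene g8208 had 3829.8 TPM at T48 and 1277 TPM at T0. A myelin regulatory factor-like gene, g12830, had 17.8 TPM at T48 and 0.909 TPM at T0. On the other side the Runt-domain gene g4247 had 3.46 TPM at T48 and 30.6 TPM at T0 and the bZIP gene g11706 had 0.755 TPM at T48 and 16.1 TPM at T0. The forkhead gene g10530 had 193 TPM at T48 and 33.6 TPM at T0 in Hsf1-/- cells and 4.98 TPM at T48 and 1.19 TPM at T0 in HaloTag/BlaR cells, and 0.559 TPM at T48 and 0.0525 TPM at T0 in WT cells, so its levels differed more between lines than between times.

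Of 170 protein kinases 38 were higher and 12 lower (24 and 18 after scaling), which is near the shares of all genes. Among the higher ones were the insulin-like receptor (g16541) at 347 TPM at T48 and 106 TPM at T0 and the kinase gene g17819 at 592 TPM at T48 and 85 TPM at T0. Of 45 ABC transporters, pumps that use ATP, 17 were higher and none lower (13 and 1 after scaling). Of 141 transmembrane transport genes 47 were higher and 11 lower (35 and 15 after scaling). The UAA-type nucleotide sugar transporter g16904 had 2009 TPM at T48 and 348 TPM at T0, the zinc transporter ZIP13 homolog (g3045) had 477 TPM at T48 and 56.7 TPM at T0 and the Tret1-like gene g5495 had 500.4 TPM at T48 and 115 TPM at T0. The monocarboxylate transporter 10 gene g11233 had 10.9 TPM at T48 and 109 TPM at T0. Chitin and cuticle genes, products of an insect epidermis, were mostly unexpressed: 22 of 141 chitin binding and 16 of 110 cuticle genes reached 1 TPM, 15 and 11 of them were higher, and 10 and 9 passed the minimum through T48 alone. The imaginal disc growth factor g2540, a chitinase-like secreted protein, had 972 TPM at T48 and 40.6 TPM at T0 in Hsf1-/- cells, 234 TPM at T48 and 9.02 TPM at T0 in HaloTag/BlaR cells and 976 TPM at T48 and 23.7 TPM at T0 in WT cells.

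The response was close to that of the other line without HSF1 and less so to those of the lines with it. Of the 1896 genes higher in Hsf1-/- cells 1521 were also higher in HaloTag/BlaR cells, 80.2% of the Hsf1-/- list and 74.6% of the HaloTag/BlaR list, and none was lower there. For HSF1-rescue cells the overlap was 677 genes, 35.7% of the Hsf1-/- list and 72.0% of the rescue list, and for WT cells it was 1082 genes, 57.1% and 49.4%. Of the 689 lower genes 518 (75.2% and 75.4%), 302 (43.8% and 55.2%) and 213 (30.9% and 54.2%) were also lower in HaloTag/BlaR, HSF1-rescue and WT cells. The lines differ in how many genes were past 2-fold, with 2039 higher (24.5%) and 687 lower (8.25%) in HaloTag/BlaR, 940 higher (11.5%) and 547 lower (6.7%) in HSF1-rescue and 2190 higher (25.7%) and 393 lower (4.61%) in WT cells, which bears on every overlap. In all 4 lines 529 genes were higher and 172 lower. There were 224 higher and 135 lower genes past 2-fold in Hsf1-/- cells alone. After scaling, 15.2% of expressed genes were higher and 13.8% lower in Hsf1-/-, 15.3% and 13.7% in HaloTag/BlaR, 10.5% and 7.99% in HSF1-rescue, and 12.5% and 11% in WT cells. With a log2 bound of 0.5 in place of 1, 41% were higher and 19.2% lower in Hsf1-/-, 43.4% and 17.5% in HaloTag/BlaR, 26.3% and 18.8% in HSF1-rescue, and 51.8% and 10.5% in WT cells.

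Across genes the Hsf1-/- ratio had a Pearson correlation of 0.92 with that of HaloTag/BlaR cells (8538 genes), 0.70 with HSF1-rescue cells (8569 genes) and 0.65 with WT cells (8778 genes), given as a description since genes are not replicates. Ratios differed by 1 or more for 3.54% of genes against HaloTag/BlaR, 16.6% against HSF1-rescue and 22.1% against WT cells. Of the 6252 genes with at least 10 TPM in Hsf1-/- or WT cells, the Hsf1-/- ratio was higher by 1 or more for 479 and lower by 1 or more for 1003. These counts are as deposited, where the median Hsf1-/- minus WT ratio over the 8778 genes was -0.22. Scaling lowers the median ratio by 0.29 in Hsf1-/- and by 0.53 in WT cells, and the genes were not recounted on scaled values. None of these differences between lines was tested.

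**Figure D5:**
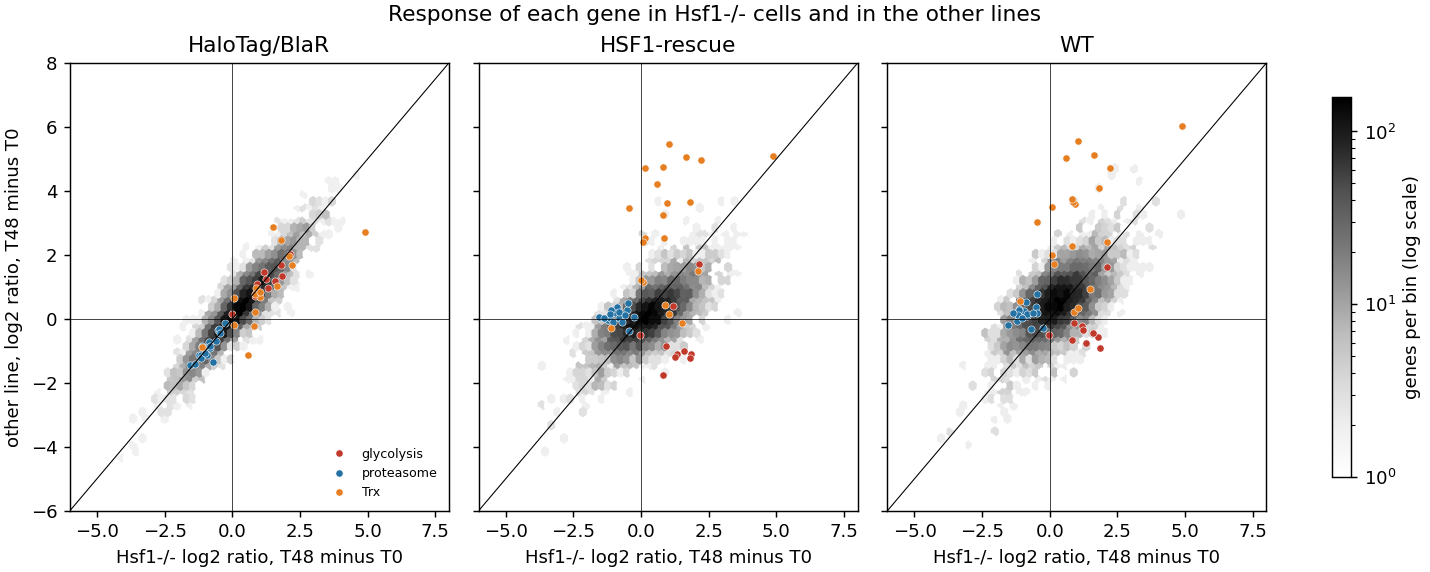
Log2 ratio (T48 minus T0, on log2(TPM + 1)) of each gene in the HaloTag/BlaR, HSF1-rescue and WT lines (vertical axes) against Hsf1-/- cells (horizontal axes), as bins shaded by the number of genes, with glycolysis, proteasome and Trx genes as points. Points follow the diagonal for HaloTag/BlaR cells, while most Trx genes lie above it and most glycolysis genes below 0 for HSF1-rescue and WT cells.

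The genes with the widest gap from WT cells fall on both sides. The unannotated gene g14027 had 272 TPM at T48 and 3.74 TPM at T0 in Hsf1-/- cells and 149.5 TPM at T48 and 97.3 TPM at T0 in WT cells, and g5195 had 197 TPM at T48 and 11.6 TPM at T0 in Hsf1-/- cells and 114 TPM at T48 and 134 TPM at T0 in WT cells. A cytochrome b5-like gene, g4973, had 96.9 TPM at T48 and 13.2 TPM at T0 in Hsf1-/- cells and 39.5 TPM at T48 and 274 TPM at T0 in WT cells, past 2-fold in opposite directions. The growth/differentiation factor 8-like gene g6611, a TGF-beta family ligand, had 64.4 TPM at T48 and 43.4 TPM at T0 in Hsf1-/- cells and 13.7 TPM at T48 and 259 TPM at T0 in WT cells, and the gap lay mainly in the WT value at T0. On the other side the Cln3-domain gene g12695 had 2.48 TPM at T48 and 21.1 TPM at T0 in Hsf1-/- cells and 10.9 TPM at T48 and 0.553 TPM at T0 in WT cells, and the MFS transporter gene g11531 had 8.3 TPM at T48 and 32.5 TPM at T0 in Hsf1-/- cells and 41.7 TPM at T48 and 4.05 TPM at T0 in WT cells. The Trx genes g17501 and g17485 and the Lea gene g17261 complete the 5 smallest differences. In all, 19 genes were lower in Hsf1-/- and higher in WT cells as deposited, and 5 of them kept both calls after scaling, since 14 lost the WT call. Another 12 genes were higher in Hsf1-/- and lower in WT cells, and 3 of them kept both calls, g4973 among them, since 9 lost the Hsf1-/- call. Called on scaled values, 6 and 16 genes showed these patterns. Among them, chosen after their values were seen, the ubiquitin hydrolase-type gene g2777 had 190.4 TPM at T48 and 484 TPM at T0 in Hsf1-/- and 367 TPM at T48 and 158 TPM at T0 in WT cells, and the monocarboxylate transporter gene g12747 had 115 TPM at T48 and 47.9 TPM at T0 in Hsf1-/- and 130.2 TPM at T48 and 266 TPM at T0 in WT cells, and neither kept both calls after scaling.

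Genes higher at T48 were more frequent on chromosome 4 than on chromosomes 1 to 3, in Hsf1-/- cells and in each of the other lines. The shares on chromosome 4 were 31.2% in HaloTag/BlaR, 16.5% in HSF1-rescue and 28.7% in WT cells. On chromosomes 1 to 3 they were 23.4% to 24.0%, 10.1% to 11.4% and 24.7% to 25.5%, in that order. In Hsf1-/- cells 31.4% of the chromosome 4 genes were expressed, against 49.1% to 52.2% on chromosomes 1 to 3. On chromosome 4 29.8% of 1013 expressed genes were higher and 5.33% lower, with a median of 0.54, whereas on chromosomes 1, 2 and 3 between 21.0% and 22.8% were higher and the medians were 0.26 to 0.27. Without the Lea, Lil, Trx and Pimt genes, 73 of whose 79 members lie there, 26.7% of 952 genes on chromosome 4 were higher. A run was taken as at least 5 neighbouring expressed genes past 2-fold in the same direction. There were 24 runs of higher genes and 2 of lower genes. Runs were counted on deposited values only, where 1896 genes were higher and 689 lower. They were not recounted after scaling, which gave 1269 higher and 1147 lower genes.

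The longest run, g16184 to g16201, spans 60.3 kb on chromosome 4 from position 8448263 to 8508544 and holds 18 genes, 6 of them Lea and 10 Lil, with a median ratio of 2.98. All 18 were also higher in HaloTag/BlaR and HSF1-rescue cells and 16 in WT cells. The next, g16350 to g16362 on the same chromosome, holds 12 genes over 37.3 kb from 9164218 to 9201502, 11 of them Pimt, with a median of 2.09. Outside the known families, g12478 to g12489 on chromosome 3 holds 6 genes with a median of 2.63. It contains g12479, an unannotated gene and one of the 10 most abundant of the cells, with 9263 TPM at T48 and 2019.8 TPM at T0 in Hsf1-/- cells and 15027 TPM at T48 and 2463 TPM at T0 in WT cells. Both runs of lower genes lie on chromosome 2 and consist of histone genes. The first, g6755 to g6762, holds 7 genes with a median of -2.05, all lower in the other lines too, and the second, g6802 to g6806, holds 5 with a median of -1.91.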

How the data were processed

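Poly(A) RNA of 24 Pv11 libraries, 3 per line and time, was sequenced. The authors trimmed the reads, used HISAT2 for alignment (assembly Pv_5.2) and marked duplicates with Picard (SAMtools 1.9). They counted reads that fit 1 gene with HTSeq 0.6.0 and deposited TPM as group means, which were used here as levels. The deposited table repeats a gene for each transcript and motif match. The FIMO score of each HSE match is as deposited. Reads that fit several gene copies were not counted, so levels of near-identical Lea, Lil, Trx, Pimt, Hsp and histone genes are uncertain. TPM keeps no depth, the read totals per library were not used here, and the group means carry no error.

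Each gene was taken once. Genes below 1 TPM in both means of a line were set aside, and the log2 ratio used a pseudocount of 1. Without replicates there was no test, and genes were counted past a 2-fold bound (Python 3.11.15, numpy 2.4.6, pandas 2.3.3). The rule was run only on simulated means with planted changes and a chosen noise, so its error rate in these data is unknown. Gene lists came from the deposited annotation terms and from families the study used. The members and lists were chosen with earlier results of these data known. Genes are named if they are Hsf1, g7775, a member of the Lea, Lil, Trx, Pimt, trehalose or Hsp lists, among the 10 largest or smallest ratios (at least 10 TPM), the 10 most abundant, the 5 largest or smallest differences from WT, up to 4 of each list with the largest or smallest ratio or the highest level, or the ends of a run. Alternatives were pseudocounts of 0.1 and 0.01, no minimum or 5 TPM, median-of-ratios scaling, TPM without the 10 most abundant genes, fewer motifs and a log2 bound of 0.5. Per-library tests, the deposited p-values of motif matches and clusters were not used here.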

Additional observations from a re-analysis of the deposited data

How the results depend on the processing

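No paired analysis was possible because the deposited columns are group means that carry no replicate numbers, and for the same reason no library could be left out. Median-of-ratios scaling gave in Hsf1-/- cells 1147 lower genes and a share of 52.5% higher, in HaloTag/BlaR cells 1271 higher, 1145 lower and 52.6%, in HSF1-rescue cells 56.8%, and in WT cells 1066 higher, 934 lower and 53.3%. A minimum of 5 TPM gave shares of 70.8%, 71.4%, 59.5% and 82.9% in the same 4 lines, and leaving out the 10 most abundant genes gave 81.8% in WT cells. Of 45 list medians, 7 changed sign under scaling: DNA repair (-0.21), sequence-specific transcription factors (-0.11), oxidoreductases (-0.28, and -0.094 at a minimum of 5 TPM), cell redox homeostasis (-0.20), apoptosis (-0.070), ubiquitin-conjugating enzymes (-0.13) and carbohydrate metabolism (-0.053). Scaling moved 33 of 90 list counts by more than 1.5 times, a minimum of 5 TPM 13, pseudocounts of 0.1 and 0.01 10 each. An HSE was present for 20.3% of higher, 22.5% of lower and 20.6% of all genes with 4 motifs, and 10.3%, 10.4% and 9.34% with MA0771.1 alone. At a log2 bound of 0.5 the overlap of higher and lower genes was 2860 and 1205 with HaloTag/BlaR, 1615 and 855 with HSF1-rescue and 2447 and 536 with WT cells. The cause was not tested where the construction of the alternative does not show it. Of 656 named genes 387 were past 2-fold in Hsf1-/- cells, 49 of these lost the call under scaling and 44 others gained one. A pseudocount of 0.1 moved the ratio of 107 named genes by more than 1.5 times. Group means carry no error, and read depth per library was not used here.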
